A study of Mus musculus with 24 samples.

Results

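The carbonic anhydrases are enzymes that interconvert carbon dioxide and bicarbonate, and 9 mouse genes of the family (Car2, Car3, Car4, Car5b, Car8, Car9, Car12, Car13 and Car14) were followed here in a deposited table of 24043 genes. The genes were picked by symbol, with the opposite behaviour of Car3 and Car9 under low oxygen already seen in these data. The family's differences between oxygen levels are therefore given as values without a test. Whether the change with medium differed between oxygen levels was tested for genes other than Car3 and Car9, and a pass is not read as support. The family has 16 gene symbols in the table, and the 7 others (Car1, Car5a, Car6, Car7, Car10, Car11 and Car15) are given by level. RNA was sequenced from C2C12 cells, an established mouse myoblast line that fuses into myotubes when serum is reduced. The 4 groups of 2 libraries each, replicates A and B, were cells kept below confluence in growth medium (DMEM with 10% fetal bovine serum) and cells in differentiation medium (DMEM with 2% horse serum and an ITS supplement), each at 21% oxygen (normoxia) or 2% oxygen (hypoxia). All groups are the same unmodified line. Neither the days in differentiation medium nor the time at 2% oxygen is given in the sources used here, and the submitters call A and B biological replicates without saying whether they were separate cultures, so p-values measure only the spread between these libraries. In bulk RNA a lower level can come from fewer cells that express a gene or from less RNA per cell, and these cannot be told apart.

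Carbonic anhydrases speed the hydration of carbon dioxide to bicarbonate and a proton. Members differ mainly in where the enzyme sits. Car2, Car3 and Car13 are cytosolic, and Car3 is an abundant but slow enzyme of slow muscle fibres and fat cells. Car5b is mitochondrial. Car9, Car12 and Car14 span the plasma membrane with the active site outside the cell, Car4 is held there by a lipid anchor, and Car6 is secreted. Car8, Car10 and Car11 lack catalytic activity. In many cells Car9 is a target of the hypoxia-inducible factors, which accumulate when oxygen is low and bind DNA at the core ACGTG or GCGTG.

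The stretch of 250 bases before the gene start is shown for the 3 family genes that had the highest level at 2% oxygen relative to 21% oxygen in growth medium, as RefSeq gives it in build GRCm38.p6, with the letters ACGTG or GCGTG on either strand in capitals. The build named for the expression table is mm9, so positions below are those of the RefSeq table only. The Car9 window is chr4:43506776-43507025 on the plus strand, the Car12 window chr9:66713436-66713685 on the plus strand and the Car6 window chr4:150201136-150201385 on the minus strand.
Car9: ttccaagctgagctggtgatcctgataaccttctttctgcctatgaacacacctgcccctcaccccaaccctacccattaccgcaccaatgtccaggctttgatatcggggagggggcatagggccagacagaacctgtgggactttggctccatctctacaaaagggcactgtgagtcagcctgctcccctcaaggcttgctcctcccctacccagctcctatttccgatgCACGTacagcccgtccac
Car12: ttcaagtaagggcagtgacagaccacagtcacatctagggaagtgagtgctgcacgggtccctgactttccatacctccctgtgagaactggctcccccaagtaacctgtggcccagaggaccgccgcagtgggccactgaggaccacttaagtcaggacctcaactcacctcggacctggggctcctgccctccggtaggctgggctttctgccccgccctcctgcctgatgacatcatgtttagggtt
Car6: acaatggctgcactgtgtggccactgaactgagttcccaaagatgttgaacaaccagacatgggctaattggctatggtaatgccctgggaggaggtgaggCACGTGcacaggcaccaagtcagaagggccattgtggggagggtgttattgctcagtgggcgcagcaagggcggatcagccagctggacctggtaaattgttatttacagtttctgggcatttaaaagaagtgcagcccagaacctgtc
The Car9 window held a single ACGTG, on the opposite strand, 18 to 14 bases before the start. In the Car6 window ACGTG lay on both strands and overlapped itself to form CACGTG, 149 to 144 bases before the start. The Car12 window held neither core. Of the other members with a window, Car5b held GCGTG 5 times, Car14 held ACGTG once and Car4 held neither. ACGTG was present in 16.6% and GCGTG in 28.2% of all 32851 windows of this length, and at least 1 of them in 38.6%. The table had no window for Car2, Car3, Car8 or Car13.

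Values are FPKM, fragments per kilobase of transcript scaled to the library's size, so that levels of different genes can be set side by side. Of the 9 genes, 6 reached a mean of 1 FPKM in at least 1 group (Car2, Car3, Car5b, Car9, Car12 and Car13) and were tested among 12389 genes. The libraries' relative depth ran from 0.633 to 1, both ends being hypoxic differentiation libraries (replicate B and replicate A). That pair also stood apart in 10 proliferation markers, which summed to 54.8 FPKM in replicate A and 342 FPKM in replicate B. The same sums were 337 and 348 FPKM in normoxic growth medium, 187 and 169.9 in hypoxic growth medium and 55.0 and 57.1 in normoxic differentiation medium. The 6 myoblast markers were all above 1 FPKM in some library, and their sum was 486 to 583 FPKM in normoxic growth medium, 133 to 141 in hypoxic growth medium, 1174 to 1182 in normoxic differentiation medium and 114 to 174 in hypoxic differentiation medium. The 9 myotube markers in the table summed to 12361 and 12649.8 FPKM in normoxic differentiation medium but to 23.6 and 13.0 FPKM in hypoxic differentiation medium, below the 35.8 to 46.7 FPKM of normoxic growth medium, so the hypoxic libraries carry the label of the medium without myotube RNA at that level. Endothelial markers were under 1 FPKM in every library (5 of 5), as were 7 of 8 erythroid and 5 of 7 macrophage and osteoclast markers. Of the macrophage and osteoclast list, Cd68 was 25.8 and 42.8 FPKM in hypoxic differentiation medium against 1.76 to 3.57 FPKM elsewhere. It made up nearly all of the list's sum there, 26.7 and 43.7 FPKM, against 4.00 to 5.96 FPKM elsewhere. The rest of the list did not rise with it, and Ptprc and Csf1r were at most 0.0137 and 0.167 FPKM in any library. The part of these differences in the values below was not tested, and tested changes that use hypoxic differentiation medium are also given without each of its libraries. Such a fit leaves 1 library in that group and drops the group's spread. The size of the change is therefore given, and a pass in such a fit is not read as support.

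Under normoxia in growth medium the family's RNA was mostly Car3, and under hypoxia it was mostly Car9. Summed over the 16 genes, the family came to 513 and 509.9 FPKM in normoxic growth medium, and Car3 made up 62.6% and 58.7% of it (replicates A and B). Car13 added 20.3% and 22.4%, and Car9 8.57% and 9.94%. In hypoxic growth medium the sum was 936 and 969 FPKM, with Car9 at 87.0% and 88.0% and Car3 at 0.184% and 0.208%. By place in the cell, genes for cytosolic enzymes held 85.5% to 87.1% of the sum in normoxic and 4.75% to 4.99% in hypoxic growth medium, and genes for cell-surface enzymes held 8.96% to 10.5% and 90.6% to 91.2%. Normoxic differentiation medium had the lowest sum, 216 and 179 FPKM, with Car3 (33.2% and 33.0%) and Car9 (38.5% and 35.1%) at like shares. The sum in hypoxic differentiation medium was 1119 and 839 FPKM, of which Car9 was 79.2% and 78.9%.

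**Figure D1:**
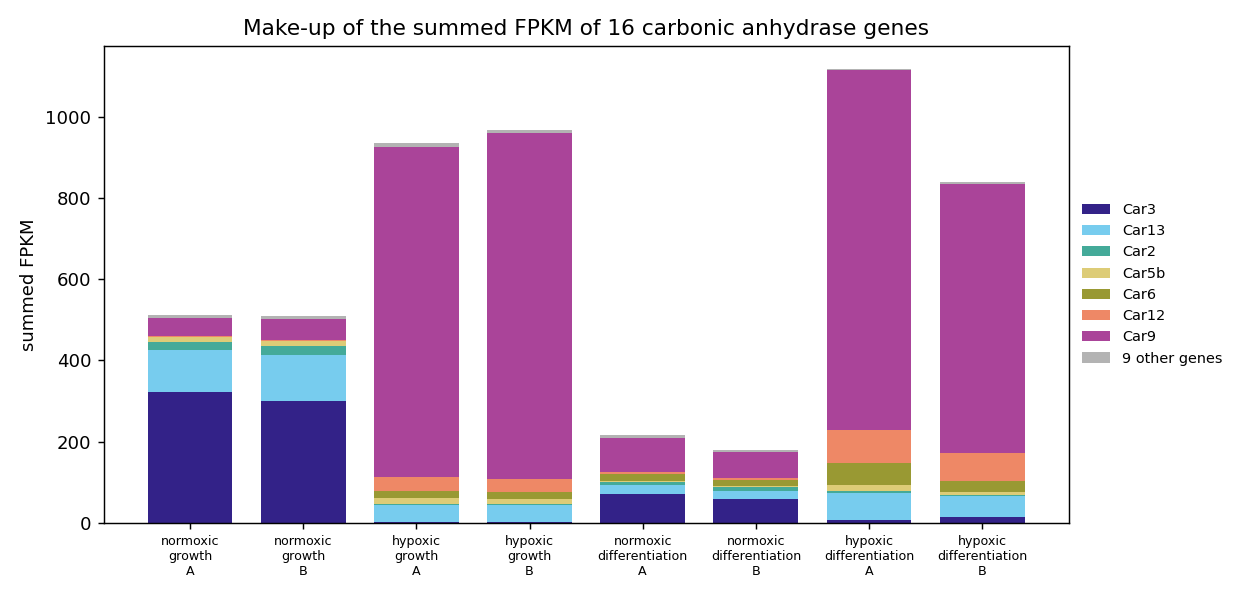
Stacked bars give the summed FPKM (linear axis from 0) of 16 carbonic anhydrase genes in each of the 8 libraries, split by gene. The 4 hypoxic libraries sum to between 839 and 1119 FPKM and are mostly Car9, whereas Car3 is the largest segment in both normoxic growth medium libraries.

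Among the cytosolic enzymes, Car3 had the widest range. It was 321 and 299 FPKM in normoxic growth medium, 71.9 and 59.3 FPKM in normoxic differentiation medium, 6.67 and 13.3 FPKM in hypoxic differentiation medium, and 1.72 and 2.01 FPKM in hypoxic growth medium. No 2 neighbouring groups in this order overlapped. The mean of 310.2 ± 15.4 FPKM (SD, n = 2) in normoxic growth medium was 166 times that of 1.87 ± 0.209 FPKM in hypoxic growth medium. In differentiation medium the normoxic mean, 65.6 ± 8.89 FPKM, was 6.56 times the hypoxic mean of 10.0 ± 4.70 FPKM. The lower level in hypoxia was therefore present in both media, and the 2 hypoxic differentiation libraries lay on the same side at 6.67 and 13.3 FPKM.

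Car2, a fast and widely expressed cytosolic enzyme, was 20.7 and 21.9 FPKM in normoxic growth medium and 8.76 and 9.62 FPKM in normoxic differentiation medium. It was 2.99 and 2.55 FPKM in hypoxic growth medium and 4.76 and 2.88 FPKM in hypoxic differentiation medium. Both hypoxic groups lay below both normoxic groups, and the hypoxic groups overlapped each other. The normoxic mean was 7.68 times the hypoxic one in growth medium and 2.41 times in differentiation medium. Car13, another cytosolic enzyme, was 104 and 114 FPKM in normoxic growth medium, against 41.9 and 41.0 FPKM in hypoxic growth medium. In differentiation medium the order turned, with 20.2 and 19.1 FPKM in normoxia and 67.5 and 51.3 FPKM in hypoxia. All 4 groups of Car13 were separate.

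Car9, the membrane enzyme, was 43.9 and 50.7 FPKM in normoxic growth medium and 83.2 and 63.0 FPKM in normoxic differentiation medium. It was 814 and 853 FPKM in hypoxic growth medium and 886 and 662 FPKM in hypoxic differentiation medium. The hypoxic mean was 17.6 times the normoxic one in growth medium and 10.6 times in differentiation medium, and the 2 hypoxic groups overlapped. The ratio of Car9 to Car3 ran from 0.137 and 0.169 in normoxic growth medium through 1.16 and 1.06 in normoxic differentiation medium to 133 and 49.7 in hypoxic differentiation medium and 474 and 424 in hypoxic growth medium.

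Car12, a second membrane enzyme, had a lower level than Car9 in every library. It ran from 1.11 to 81.8 FPKM, against 43.9 to 886 FPKM for Car9. It was 1.11 and 1.88 FPKM in normoxic growth medium, 6.83 and 5.45 FPKM in normoxic differentiation medium, 33.2 and 29.8 FPKM in hypoxic growth medium, and 81.8 and 69.9 FPKM in hypoxic differentiation medium. All 4 groups were separate, and the hypoxic mean was 21.0 times the normoxic one in growth medium and 12.4 times in differentiation medium. Car12 was thus highest with low oxygen and differentiation medium together, while Car9 was at a like level in both hypoxic groups.

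The mitochondrial Car5b stood at 12.6 and 14.0 FPKM in normoxic growth medium, 13.4 and 12.4 FPKM in hypoxic growth medium and 13.0 and 8.57 FPKM in hypoxic differentiation medium, 3 groups that overlapped in turn. It was 3.07 and 3.33 FPKM in normoxic differentiation medium, below every other library. The sign of the small difference with oxygen in growth medium (-0.04 on the log2 scale) turned after median-of-ratios (0.07) and upper-quartile scaling (0.12).

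**Figure D2:**
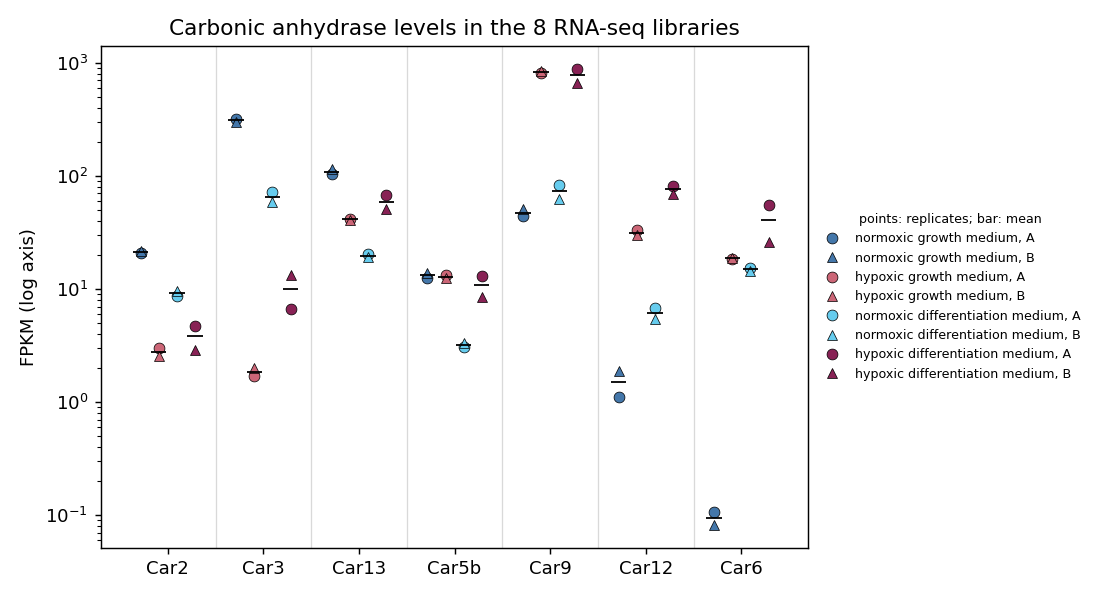
Points are the FPKM of single libraries on a log axis for 7 carbonic anhydrase genes, with colours for the 4 groups, circles for replicate A, triangles for replicate B and bars for the group mean. Car3 lies at 299 to 321 FPKM in normoxic and 1.72 to 2.01 FPKM in hypoxic growth medium, whereas Car9, Car12 and Car6 lie higher in hypoxic than in normoxic growth medium.

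Across the 6 tested genes, the libraries at 2% and 21% oxygen did not overlap for 5 genes in growth medium, 2 higher (Car9 and Car12) and 3 lower (Car2, Car3 and Car13). No overlap was seen for 77.2% of all 12389 genes in that comparison, 27.2% higher and 50.0% lower. In differentiation medium all 6 were separate, 4 higher (Car5b, Car9, Car12 and Car13) and 2 lower (Car2 and Car3), against 83.1% of all genes, 48.0% higher and 35.1% lower. Nothing is read from these counts, because this contrast entered the choice of genes.

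Of the 3 genes below the filter, Car4 was listed at 0 in all 8 libraries. Car8, the catalytically inactive member, was listed at 0 in both normoxic differentiation libraries and was between 0.133 and 0.347 FPKM in the other 6. Car14 was at most 0.106 FPKM, and its values were whole multiples of 1 fragment (within 0.06 of a fragment), which gave 0 to 3 fragments per library. With 3 fragments worth 0.091 to 0.144 FPKM, differences of a few fragments in Car14 could not be resolved at this depth. A much higher level would have been seen, and no library had one.

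The change of medium was then compared at each oxygen level. These contrasts were not used to choose the genes, although they share libraries with the contrasts that were. At 21% oxygen, 4 of the 6 tested genes fell in differentiation medium and 2 rose at an adjusted p under 0.05 (limma), in a comparison in which 66.5% of all genes passed that threshold, 41.0% lower and 25.5% higher. The median change of the 6 genes was -1.45 on the log2(FPKM + 1) scale, and that of all genes was -0.20, or 0.03 after median-of-ratios scaling. Car13 fell by 2.41 ± 0.13 on the log2 scale (SE, adjusted p = 1.20e-05), from 109 ± 7.17 to 19.7 ± 0.818 FPKM. Car3 fell by 2.23 ± 0.27 (adjusted p = 0.000406), 4.73-fold in mean FPKM. Car5b fell by 1.77 ± 0.18 (adjusted p = 0.00018), from 13.3 ± 0.996 to 3.20 ± 0.184 FPKM, and Car2 fell by 1.13 ± 0.19 (adjusted p = 0.00176). The slow-fibre markers, a program in which Car3 is usually counted, were higher in sum in normoxic differentiation medium, at 6040.1 and 6205 FPKM, than in normoxic growth medium, at 100 and 93.2 FPKM. With hypoxia their sum was lower in both media, at 55.9 and 60.3 FPKM in growth medium and 64.9 and 65.1 FPKM in differentiation medium. Of these 8 markers, 1 was under 1 FPKM in every library. Adipocyte markers, the other setting in which Car3 is abundant, summed to 33.0 to 37.2 FPKM in normoxic growth medium, 17.6 to 20.9 in hypoxic growth medium, 10.1 in both normoxic differentiation libraries and 9.15 to 11.4 in hypoxic differentiation medium. Of these 10 markers, 6 were under 1 FPKM in every library and Plin1, Lep and Cidec were at 0.

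Both membrane enzymes rose at 21% oxygen. Car12 rose by 1.53 ± 0.18 (adjusted p = 0.000338), from 1.50 ± 0.543 to 6.14 ± 0.97 FPKM. Car9 rose by 0.61 ± 0.18 (adjusted p = 0.0224), from 47.3 ± 4.76 to 73.1 ± 14.3 FPKM. The Car9 call did not hold without normoxic growth medium replicate A (0.51, adjusted p = 0.116) or without normoxic differentiation medium replicate A (0.41, adjusted p = 0.139).

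At 2% oxygen the same medium change gave 3 higher genes and 3 that did not pass, where 40.9% of all genes passed, 23.3% higher and 17.6% lower. The median of the 6 genes was 0.41 and that of all genes 0.07. Car3 rose by 1.87 ± 0.27 (adjusted p = 0.00271), from 1.87 ± 0.209 to 10.0 ± 4.70 FPKM. Its change was 2.32 without hypoxic differentiation replicate A and 1.42 without replicate B. Car12 rose by 1.24 ± 0.18 (adjusted p = 0.00266), from 31.5 ± 2.38 to 75.9 ± 8.43 FPKM, with 1.13 and 1.35 without replicate A and B. Car13 rose by 0.50 ± 0.13 (adjusted p = 0.0244), from 41.4 ± 0.618 to 59.4 ± 11.5 FPKM, with 0.30 without hypoxic differentiation replicate A and 0.69 without replicate B. That call was lost under both other scalings, with an adjusted p of 0.077 for median-of-ratios and 0.104 for upper-quartile. It was also lost when the fit held just the 4 hypoxic libraries (0.0796), and without hypoxic growth replicate A (adjusted p = 0.097) or B (adjusted p = 0.115) or normoxic differentiation replicate A (adjusted p = 0.0532) or B (adjusted p = 0.0541).

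The other 3 genes differed by less than the test could call. Car9 was 834 ± 28.0 FPKM before and 774 ± 158 FPKM after the change (-0.12 ± 0.18, adjusted p = 0.631), and the sign turned without hypoxic differentiation replicate B (0.09). Car5b had -0.26 ± 0.18 (adjusted p = 0.286). Its change was -0.54 without hypoxic differentiation replicate A and 0.01 without replicate B. Car2 had 0.33 ± 0.19 (adjusted p = 0.209), 0.61 without replicate B (adjusted p = 0.00752) and 0.04 without replicate A (adjusted p = 0.788). Beside these shifts, the proliferation markers differed between the same 2 libraries as given above, and their part was not tested.

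**Figure D3:**
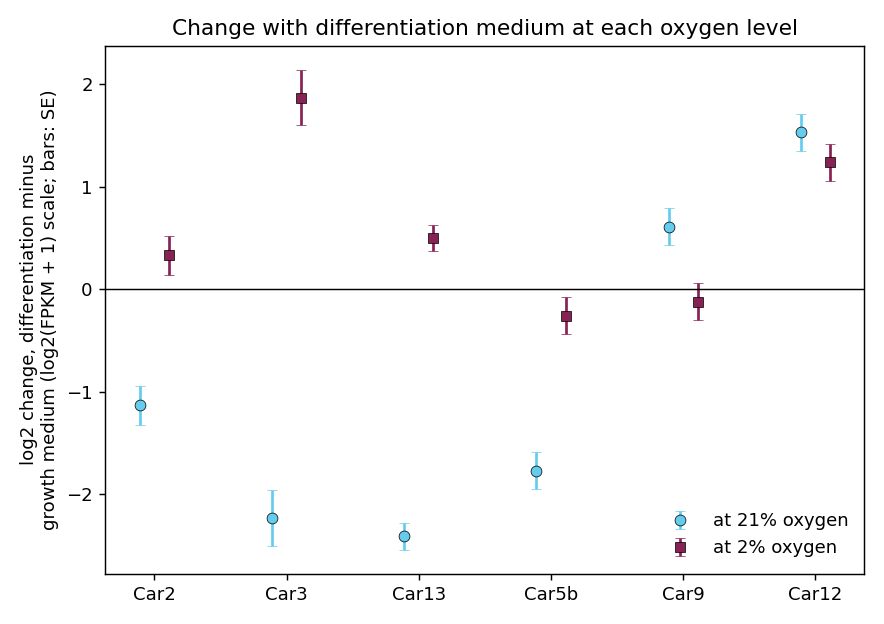
Points are the limma change from growth to differentiation medium on the log2(FPKM + 1) scale for the 6 tested genes, with SE bars, circles for 21% oxygen and squares for 2% oxygen. Car2, Car3, Car13 and Car5b lie below 0 at 21% oxygen, and Car3 lies at -2.23 there and at 1.87 at 2% oxygen.

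Whether the response to the medium differed with oxygen was tested for the genes other than Car3 and Car9. The same quantity is the oxygen difference in differentiation medium minus that in growth medium, and those contrasts entered the choice of genes. The p-values of this test are therefore not read as support. Of 4 tested, 3 passed, all with a more positive change at 2% oxygen, in a comparison in which 54.1% of all genes passed, 35.4% more positive and 18.7% more negative. Car13 had a difference of 2.91 ± 0.19 (adjusted p = 5.30e-05), Car5b 1.50 ± 0.26 (adjusted p = 0.00294) and Car2 1.46 ± 0.27 (adjusted p = 0.00397). Without hypoxic differentiation replicate A these were 2.71, 1.23 and 1.17, and without replicate B 3.11, 1.78 and 1.74. Car12 rose at both oxygen levels, and its difference of -0.29 ± 0.25 did not pass (adjusted p = 0.368). The median difference of the 4 genes was 1.48 and that of all genes 0.27. After median-of-ratios scaling the median of all genes was -0.01, with Car13 at 2.59 and Car12 at -0.54. The median of the 4 genes was not computed under that scaling. For Car3 the change was negative at 21% and positive at 2% oxygen, and the difference was not tested.

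Car13, Car1, Car3 and Car2 follow one another in this order on mouse chromosome 3, in RefSeq's order of genes. All 4 had a lower mean at 2% than at 21% oxygen in growth medium. In that comparison 50.0% of all 12389 genes were lower with no overlap, and the median of all genes was -0.14. The direction of Car3 was known when it was picked, so nothing is read from this count. On the log2(FPKM + 1) scale the difference was -1.38 for Car13, -0.57 for Car1, -6.76 for Car3 and -2.56 for Car2. Car1, the red-cell enzyme, was low throughout, at 0.69 and 0.441 FPKM in normoxic and 0 and 0.105 FPKM in hypoxic growth medium. With differentiation medium the differences in the same order were -2.41, -0.17, -2.23 and -1.13 at 21% oxygen and 0.50, 0.14, 1.87 and 0.33 at 2% oxygen. The Car1 libraries overlapped between media at both oxygen levels, and those of Car2 overlapped at 2% oxygen. With hypoxia in differentiation medium Car13 had 1.53, while Car1, Car3 and Car2 had -0.27, -2.66 and -1.11. On the Car13 side the next genes are Rbis (1810022K09Rik in the table), E2f5 and Lrrcc1, whose differences with hypoxia in growth medium were -0.36 (adjusted p = 0.0227), -0.51 (adjusted p = 0.0171) and 0.10 (adjusted p = 0.792). Of all genes, 28.0% were called lower and 13.5% higher there. In differentiation medium E2f5 and Lrrcc1 were higher in hypoxia by 0.72 (adjusted p = 0.00227) and 0.93 (adjusted p = 0.0184), and Rbis had -0.12 (adjusted p = 0.277). In that comparison 37.5% of all genes were called higher and 27.7% lower. With differentiation medium at 21% oxygen E2f5 and Lrrcc1 fell by 1.14 (adjusted p = 0.00025) and 1.15 (adjusted p = 0.00732), whereas Rbis rose by 0.27 (adjusted p = 0.0412). Here 41.0% of all genes were called lower and 25.5% higher. At 2% oxygen Rbis rose by 0.50 (adjusted p = 0.00716), and E2f5 (0.09, adjusted p = 0.618) and Lrrcc1 (-0.33, adjusted p = 0.359) did not pass, where 23.3% of all genes were called higher and 17.6% lower. The neighbours were not refitted without single libraries. On the Car2 side the next 3 genes, Gm9733, Sirpb1a and Sirpb1b, were listed at 0 in every library. The neighbours were looked up after the values of the family were seen.

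**Figure D4:**
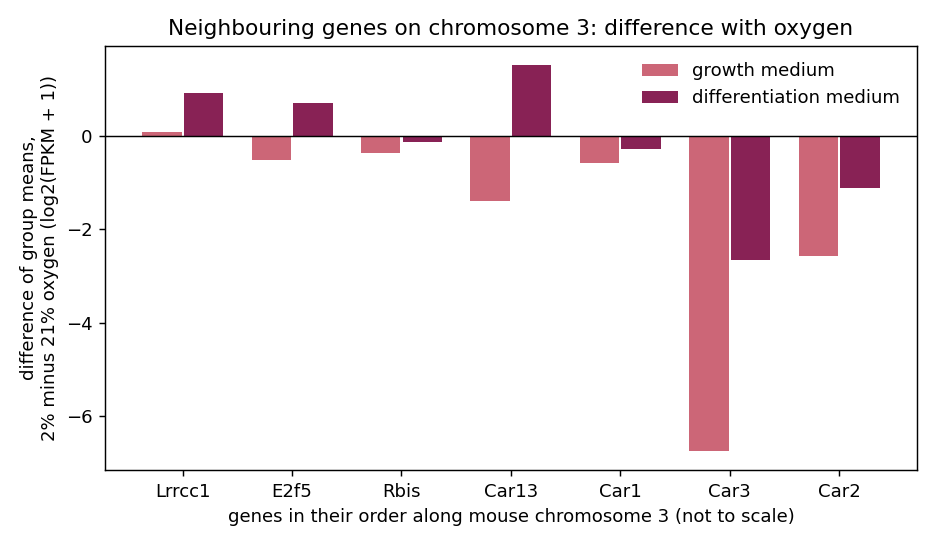
Bars give the difference of group means, 2% minus 21% oxygen, on the log2(FPKM + 1) scale for 7 genes in their order along mouse chromosome 3, in growth and in differentiation medium. Car3 has the longest bars, -6.76 and -2.66, and Car13 is -1.38 in growth medium and 1.53 in differentiation medium.

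Of the 7 family genes outside the list of 9, Car6 and Car11 reached a mean of 2 FPKM in some group. Car6, the secreted enzyme, was 0.107 and 0.0823 FPKM in normoxic growth medium, 15.4 and 14.5 FPKM in normoxic differentiation medium, 18.5 and 18.9 FPKM in hypoxic growth medium, and 54.8 and 26.0 FPKM in hypoxic differentiation medium. It was near 0 in normoxic growth medium alone, and no fold is given against that group because its values may be a few fragments. Car6 passed the filter only through the other groups, so its log2 change with differentiation medium at 21% oxygen, 3.86, is given without a p-value. With differentiation medium at 2% oxygen it rose by 0.98 ± 0.30 (adjusted p = 0.0393). The change at 2% oxygen was 0.46 without hypoxic differentiation replicate A and 1.50 without replicate B. The call at 2% oxygen was lost, with an adjusted p from 0.0666 to 0.142, without the filter, under both other scalings, when just the hypoxic libraries were fitted, and without any single library of the other 3 groups. Car6 was singled out after its values were seen. The inactive Car11 was 7.14 and 6.09 FPKM in normoxic growth, 8.74 and 7.47 in hypoxic growth, 5.67 and 3.99 in normoxic differentiation and 3.14 and 2.32 FPKM in hypoxic differentiation medium. It fell with differentiation medium at 2% oxygen by 1.29 ± 0.19 (adjusted p = 0.00264), with -1.45 and -1.13 without hypoxic differentiation replicate A and B, and had -0.40 ± 0.19 at 21% oxygen (adjusted p = 0.101). Car15 was 0.281 to 1.82 FPKM, Car1 and Car7 were under 1 FPKM in every library, and Car5a and Car10 had 0 in at least 4 of 8 libraries.

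For each of the 6 genes the closest profiles were sought among 7864 genes with a mean of at least 10 FPKM in some group, by the root-mean-square difference over the 8 libraries between log2(FPKM + 1) profiles, each centred on its own mean. For Car9 the closest were Ndrg1 (0.19), Gipr (0.29) and P4ha2 (0.31), beside a spread of 1.89 for Car9 itself. Ndrg1 was 82.3 ± 2.16 FPKM in normoxic and 1837 ± 44.2 FPKM in hypoxic growth medium, and 165 ± 21.5 and 1829 ± 576 FPKM in differentiation medium. For Car12, with a spread of 1.92, they were Higd1a (0.26), Gbe1 (0.29) and Pfkfb3 (0.30). For Car3 no profile was as near: the closest, the imprinted gene Mest, differed by 0.78 and the next, Fgfr4 and Vcam1, by 1.12 and 1.18, beside a spread of 2.58. Mest was 208 ± 5.87 FPKM in normoxic growth, 1.15 ± 0.0578 in hypoxic growth, 14.0 ± 0.794 in normoxic differentiation and 6.32 ± 1.09 FPKM in hypoxic differentiation medium. Car2 (spread 1.02) was closest to Gmpr (0.23), Arhgdib (0.28) and Lix1 (0.33). Car13 (0.88) was closest to C1s1, Gstm2 and Nqo1 (0.19 each), and Car5b (0.74) to Rbbp9 (0.11), Cnpy4 (0.11) and Glb1 (0.13). The 8 libraries share their groups, so these figures describe likeness and carry no test.

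Bicarbonate, protons and lactate made or used by these reactions cross membranes on separate carriers, and a list of 29 such genes was followed beside the family. Of these, 20 passed the filter, Slc16a4 through normoxic growth medium alone and Slc9a2 through normoxic differentiation medium alone. The filter favoured the calls of these genes against those groups, so they are not read as support, also within the counts below. With hypoxia in growth medium 3 were higher and 7 lower, where 41.4% of all genes passed, 13.5% higher and 28.0% lower, and the list's median was -0.01 against -0.14 for all genes. The lean to lower depended on the scaling: 3 were higher and 4 lower after median-of-ratios scaling, and 4 and 4 after upper-quartile scaling. The lactate and proton carrier Slc16a3 rose by 2.53 ± 0.15 (adjusted p = 8.22e-05), from 25.3 to 151 FPKM. Its chaperone basigin (Bsg) rose by 2.59 ± 0.13 (adjusted p = 5.71e-05), from 396 to 2399 FPKM. The endosomal sodium-proton exchanger Slc9a9 fell by 1.84 ± 0.10 (adjusted p = 6.84e-05), and Slc16a4 fell by 0.85 ± 0.12 (adjusted p = 0.00203), from 1.03 to 0.126 FPKM. In differentiation medium the mean of Slc16a4 was instead higher in hypoxia, at 0.587 against 0.054 FPKM.

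With hypoxia in differentiation medium 11 were higher and 4 lower, where 65.2% of all genes passed, 37.5% higher and 27.7% lower, and the median was 0.37 against 0.15. After median-of-ratios scaling 7 were higher and 5 lower, and after upper-quartile scaling 10 and 4. Without hypoxic differentiation replicate A 12 were higher and 4 lower, and without replicate B 10 and 4. Slc16a3 rose by 3.13 ± 0.15 (adjusted p = 5.35e-06) and Bsg by 2.66 ± 0.13 (adjusted p = 7.00e-06). The water channel Aqp1 was higher by 2.86 ± 0.14 (adjusted p = 7.37e-06), at 25.5 FPKM in hypoxia and 2.62 FPKM in normoxia. The chloride-bicarbonate exchanger Slc4a3 fell by 2.85 ± 0.12 (adjusted p = 3.48e-06), at 3.71 against 33.0 FPKM. Without hypoxic differentiation replicate A the changes were 3.04 for Slc16a3, 2.48 for Bsg, 3.08 for Aqp1 and -2.79 for Slc4a3, and without replicate B they were 3.23, 2.84, 2.63 and -2.91. None of the called transport genes named for the 2 hypoxia comparisons changed sign under any alternative setting tried.

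With differentiation medium at 21% oxygen 5 of the 20 were higher and 7 lower, where 66.5% of all genes passed, 25.5% higher and 41.0% lower. The list's median was -0.30 against -0.20 for all genes, and 5 were higher and 5 lower under either other scaling. Aqp1 fell by 4.63 ± 0.14 (adjusted p = 1.05e-06), from 88.5 FPKM. Embigin (Emb), another chaperone of lactate carriers, fell by 2.47 ± 0.11 (adjusted p = 4.43e-06) and Slc9a5 by 1.56 ± 0.13 (adjusted p = 7.58e-05), while Slc4a3 rose by 2.00 ± 0.12 (adjusted p = 1.81e-05). At 2% oxygen 3 were higher and 5 lower, where 40.9% of all genes passed, 23.3% higher and 17.6% lower, and the median was 0.17 against 0.07. After median-of-ratios scaling 1 was higher and 6 lower, and after upper-quartile scaling the 6 that passed were lower. Without hypoxic differentiation replicate A 5 were higher and 4 lower, and without replicate B 5 and 7. Aqp1 fell by 1.78 ± 0.14 (adjusted p = 0.000449), Emb by 1.68 ± 0.11 (adjusted p = 0.000248) and the lactate carrier Slc16a1 by 0.74 ± 0.09 (adjusted p = 0.00173). Without hypoxic differentiation replicate A these 3 changes were -1.56, -1.81 and -0.85, and without replicate B -2.01, -1.55 and -0.64. Slc16a3 rose by 0.56 ± 0.15 (adjusted p = 0.0226). It no longer passed when libraries were weighted by quality (adjusted p = 0.141) or scaled by upper quartile (0.062), and without hypoxic growth replicate A (adjusted p = 0.112), hypoxic growth replicate B (adjusted p = 0.0871) or hypoxic differentiation replicate A (0.47, adjusted p = 0.0641). Its change was 0.66 without hypoxic differentiation replicate B.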

How the data were processed

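The study deposited 1 gene table for its 8 RNA-seq libraries, made from stranded total RNA libraries per the labels' protocols. Its 16 libraries of chromatin and input DNA were not used here. The deposited values are FPKM by their behaviour (not whole numbers, with low values in steps that differ between genes). STAR 2.5.1b, Cufflinks 2.2.1 and build mm9 are named in the submitters' processing notes. Annotation, use of strand and scaling between libraries are not given in the sources used here, so antisense overlap cannot be judged. Absolute depth is unknown. Relative depth was the most common ratio between libraries of values up to 0.5 FPKM.

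Columns were matched to samples by title. Genes whose mean reached 1 FPKM in any of the 4 groups were fitted on log2(FPKM + 1) by limma 3.58.1 under R 4.3.3, using 4 group means, 4 residual and 2.61 prior degrees of freedom and an intensity trend. Tests are two-sided with Benjamini-Hochberg adjustment over 12389 genes, and the procedure was tested on simulated data. The pseudocount of 1 understates changes of genes near or under 1 FPKM. Genes and lists were chosen with earlier results of these data known. Named genes are the family, the 4 largest called changes of the transport list in each comparison and the 3 closest profiles of each gene with at least 5 FPKM. Alternatives were a pseudocount of 0.1, no filter, 2 scalings, only the libraries compared, array quality weights, robust moderation, a replicate block and leaving out each library.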

Additional observations from a re-analysis of the deposited data

Results flagged for a closer look

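The difference between oxygen levels in the change with differentiation medium passed a test for 5 genes of the family (limma, adjusted over all genes). The test is built from the oxygen contrasts that entered the choice of genes, so a pass is not read as support. The change at 2% oxygen minus that at 21% oxygen was 1.46 on the log2 scale for Car2, 1.50 for Car5b, 2.91 for Car13, -2.89 for Car6 (adjusted p = 0.0016) and -0.90 for Car11 (adjusted p = 0.0264). Without hypoxic differentiation replicate A and B these were -3.41 and -2.36 for Car6 and -1.06 and -0.74 for Car11. Car12 (-0.29, adjusted p = 0.368) and Car15 (0.51, adjusted p = 0.267) were also tested and did not pass. The negative sign for Car6 belongs to the log2(FPKM + 1) scale, with normoxic growth medium near 0 (mean 0.0945 FPKM). In FPKM its mean rose by 14.8 at 21% oxygen and by 21.7 at 2% oxygen, where the SD in differentiation medium was 20.3. Car6 and Car11 lie outside the list of 9, and Car6 was singled out after its values were seen. Of all genes, 54.1% passed the same test. For Car3 both libraries moved down at 21% oxygen (-2.23) and both moved up at 2% oxygen (1.87), and the difference was not tested because its behaviour with oxygen was known when it was picked.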

How the results depend on the processing

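Among the family, 252 alternative values of the tests on the 9 genes were computed, of which 239 kept their direction and their side of the threshold. The number of genes called ranged from 5 to 6 of the family with differentiation at 21% oxygen when 1 library was left out, from 2 to 4 at 2% oxygen, and stayed at 3 for the difference between oxygen levels. Without the filter on low values these were 7, 3 and 4. The 2 reversed values were those of Car5b (0.01) and Car9 (0.09) at 2% oxygen without hypoxic differentiation replicate B, neither of which was called with all libraries; without replicate A they were -0.54 and -0.33. The number of genes whose oxygen groups did not overlap was 5 to 6 in growth medium and 6 in differentiation medium when 1 library was left out. Car11 lost its call for the difference between oxygen levels with array quality weights (adjusted p = 0.0692) and without normoxic growth replicate B (0.0826), hypoxic growth replicate A (0.092) or B (0.0503), or normoxic differentiation replicate A (0.0899).

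Over all genes, calls for differentiation at 2% oxygen numbered 5073, or 3034 with only the libraries compared, and 2501 to 6529 when 1 library was left out, with 2688 and 2501 without hypoxic growth replicate A and B. Leaving out 1 library gave 2997 to 6844 calls for hypoxia in growth medium (5135 with all), with 2997 and 3083 without hypoxic growth replicate A and B. It gave 6352 to 9292 for differentiation at 21% oxygen, 6370 to 8726 for hypoxia in differentiation medium and 5147 to 8066 for the difference between oxygen levels. The share of higher genes among calls went from 38.4% to 53.6% for differentiation at 21% oxygen and from 65.5% to 47.3% for the difference between oxygen levels after median-of-ratios scaling. For hypoxia it went from 32.6% to 43.4% in growth medium and from 57.5% to 46.5% in differentiation medium. The transport list had 8 calls for differentiation at 2% oxygen, 4 with only the libraries compared, 4 with array quality weights and 3 to 12 when 1 library was left out. For hypoxia in growth medium it had 10, and 5 to 11 when 1 library was left out, with 6, 5 and 6 without normoxic growth replicate A, hypoxic growth replicate A and hypoxic growth replicate B. Fewer samples enter the fits that leave libraries out. Even so, the highest counts over all genes among these fits each came without a hypoxic differentiation library, also where the comparison did not use that group. The replicates of that group differed most, with an SD of 0.57 for the log2 difference between them, against 0.36 to 0.44 in the other groups. The cause of these moves was not tested.

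The sample titles link replicates across groups by a letter alone. Deviations of the A libraries from their group means correlated between groups at -0.17 to 0.04, which does not settle whether libraries of the same letter were paired. With the letter as a replicate block, the family counts stayed at 6, 3 and 3, calls over all genes were 7931 for differentiation at 21% oxygen and 4453 at 2% oxygen, and Car11 passed at 21% oxygen (-0.40, adjusted p = 0.0257). Car4, Car8 and Car14 lay below the filter on low values, and of these the FPKM worth of a fragment was worked out for Car14 alone.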
